A study of Mus musculus with 20 samples.

Results

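Genes of cholesterol and fatty acid synthesis were followed in RNA from sorted mouse CD4 T cells. The set holds 30 of the 22878 gene symbols in the deposited RNA tables. Its members were listed by gene name and pathway role. For each symbol the transcript row with the most reads was used. There were 16 sterol enzymes, 1 sterol transport gene, 5 regulators of the sterol regulatory element binding proteins (SREBPs) and 8 fatty acid enzymes.

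The study sorted CD4 T cells by whether they expressed, or had once expressed, T-bet, the Th1 transcription factor that Tbx21 encodes. It holds 12 RNA libraries, 2 in each of 6 groups. The spleen groups were CD44-high CD25- cells positive for tdTomato, either T-bet-ZsGreen+ or T-bet-ZsGreen-, from naive ZTCE-tdTomato mice. These mice carry T-bet-ZsGreen-T2A-CreERT2 and a Rosa26 tdTomato allele behind a loxP-STOP-loxP cassette, on a C57BL/6 background. ZsGreen reports current T-bet expression, and tdTomato marks cells in which the T-bet-driven Cre has acted. All spleen cells compared therefore carried the past mark. The 4 lymph node groups were AS15 tetramer-binding cells from draining lymph nodes on day 16 after AS-15/CFA immunization of T-bet-Cre mice with the same tdTomato reporter, also on a C57BL/6 background. Cells high for CXCR5 and PD1 (follicular helper T cells, Tfh) and cells low for both (non-Tfh) were each split into Tomato+ and Tomato- cells. Sex, age, the number of animals behind a library and any tamoxifen dosing are not given in the sources used here. Nothing says that the 2 libraries of a group came from separate animals, so p-values measure the spread between libraries, which may be technical.

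Cells make cholesterol from acetyl-CoA through mevalonate, farnesyl diphosphate and squalene. They make fatty acids from the same precursor through malonyl-CoA. SREBP-2, encoded by Srebf2, mainly drives sterol genes, and SREBP-1, encoded by Srebf1, mainly drives fatty acid genes. Both are held in the endoplasmic reticulum membrane, where Scap escorts them towards cleavage and the Insig proteins retain them when sterols are plentiful. Activated T cells are known to raise both pathways when they grow and divide.

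RefSeq promoter entries (build GRCm38.p6, 250 bases before to 50 bases after a start site) matched 23 of the 30 members. Sequences of 150 bases directly before the start are shown for 3 sterol enzymes and 2 regulators whose RNA was lower in ZsGreen+ than in ZsGreen- spleen cells, and for Acly, a fatty acid enzyme that did not pass the test. Each runs 5′ to 3′ on the strand of its gene. Capitals mark the letters CCAAT (the CCAAT box bound by NF-Y), GGGCGG (the GC box bound by Sp1) and CACGTG (an E-box), or their reverse complements. The entries of Acly and Insig1 also hold CCAAT, at positions 38 and -216 from the start, outside the bases shown.
Cyp51 (chr5:4104698-4104847, minus strand): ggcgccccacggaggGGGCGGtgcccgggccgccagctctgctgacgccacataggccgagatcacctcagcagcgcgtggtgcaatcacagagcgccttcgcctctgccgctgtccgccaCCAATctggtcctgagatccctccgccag
Tm7sf2 (chr19:6067851-6068000, minus strand): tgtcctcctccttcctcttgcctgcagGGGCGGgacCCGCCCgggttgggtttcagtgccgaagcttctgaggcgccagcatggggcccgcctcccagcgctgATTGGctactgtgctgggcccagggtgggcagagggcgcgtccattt
Nsdhl (chrX:72918371-72918520, plus strand): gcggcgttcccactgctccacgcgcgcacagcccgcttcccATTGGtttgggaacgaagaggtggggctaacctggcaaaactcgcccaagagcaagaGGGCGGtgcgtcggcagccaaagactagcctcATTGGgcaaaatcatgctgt
Srebf2 (chr15:82147119-82147268, plus strand): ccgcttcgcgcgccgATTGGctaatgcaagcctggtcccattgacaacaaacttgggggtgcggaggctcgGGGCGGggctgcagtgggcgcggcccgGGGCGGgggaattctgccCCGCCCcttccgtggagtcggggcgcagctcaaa
Insig1 (chr5:28071262-28071411, plus strand): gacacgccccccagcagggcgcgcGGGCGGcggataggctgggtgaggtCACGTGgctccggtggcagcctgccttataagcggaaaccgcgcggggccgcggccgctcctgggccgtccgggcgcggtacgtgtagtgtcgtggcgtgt
Acly (chr11:100528001-100528150, minus strand): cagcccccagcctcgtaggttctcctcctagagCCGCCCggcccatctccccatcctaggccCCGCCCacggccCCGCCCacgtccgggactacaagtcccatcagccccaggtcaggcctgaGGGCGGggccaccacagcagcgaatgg

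The whole 300-base entries were searched on both strands. Some genes have several entries, and a gene's promoter was counted if any of its entries held the letters. CCAAT was found in 18 of 23 member promoters (78.3%), against 43.1% of the 9166 promoters of genes tested in the spleen and 41.1% of all 27025 genes in the table. It was in 12 of 13 sterol enzyme promoters and in 2 of 5 fatty acid enzyme promoters. All 7 matched members with lower RNA in ZsGreen+ spleen cells held it, as did 10 of the 15 matched members that did not pass the test. GGGCGG was found in 82.6% of member promoters, against 67.1% of the promoters of genes tested in the spleen. CACGTG was found in 4 (17.4%), those of Dhcr7, Hsd17b7, Insig1 and Scap. It was in 11.7% of the promoters of genes tested in the spleen and in 8.09% of all genes in the table. The sterol regulatory element (SRE, by its classical consensus) was found in 0 of the 23, and in 0.27% of all promoters in the table. These counts describe letters in fixed windows, and no match here says nothing about binding. Fdps, Fdft1, Sqle, Stard4, Scd1, Scd2 and Fads1 had no matched entry.

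Gene read totals ran from 13169783 to 24174592 a library. The spleen libraries had reads for 15080 to 15326 genes and the lymph node libraries for 11154 to 11805. The biological coefficient of variation, the spread between replicate libraries beyond counting error, was 0.0867 in spleen libraries and 0.908 in lymph node libraries. No member differed more than 2-fold between the 2 libraries of either spleen group. In the lymph node 10 to 15 of 28 members did so in each group, where 38.6% to 46.2% of all genes with reads did. Tbx21 had 193 and 214 RPKM (reads per kilobase, scaled to library size) in ZsGreen+ spleen libraries, against 46.4 and 45.3 RPKM in ZsGreen- libraries. In the lymph node it had 53.0 to 183 RPKM in Tomato+ libraries, against 10.4 to 12.9 RPKM in Tomato- libraries, and the Tfh sort gene Cxcr5 had 258 to 394 RPKM in Tfh libraries, against 27.8 to 113 RPKM in non-Tfh libraries. Hmgcs1, the HMG-CoA synthase gene, was listed at 0 reads in all 12 libraries. The housekeeping gene Gapdh had only 31 to 134 reads and Ppia 6 to 32, so a value at or near 0 in these tables does not show that a gene was silent. All 10 CD4 T cell markers had reads in every library.

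In the spleen, 8 of 15 tested sterol enzymes and the transport gene Stard4 were lower in ZsGreen+ than in ZsGreen- cells. So were 2 of 5 regulators and 1 of 8 fatty acid enzymes, and the difference between these classes was not tested. Of 29 members tested, 12 were lower and 0 were higher by edgeR's quasi-likelihood test at an adjusted p below 0.05, and 17 did not pass. Among all 12918 genes tested, 12.4% were lower, 11.4% higher and 23.8% called in either direction. The 12 were Sqle, Cyp51, Tm7sf2, Nsdhl, Fdft1, Ebp, Pmvk, Fdps, Stard4, Srebf2, Insig1 and Scd2. The median log2 fold change, ZsGreen+ over ZsGreen-, was -0.30 over the members and 0.00437 over all genes tested. In bulk RNA, fewer expressing cells and less RNA per cell cannot be told apart.

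**Figure D1:**
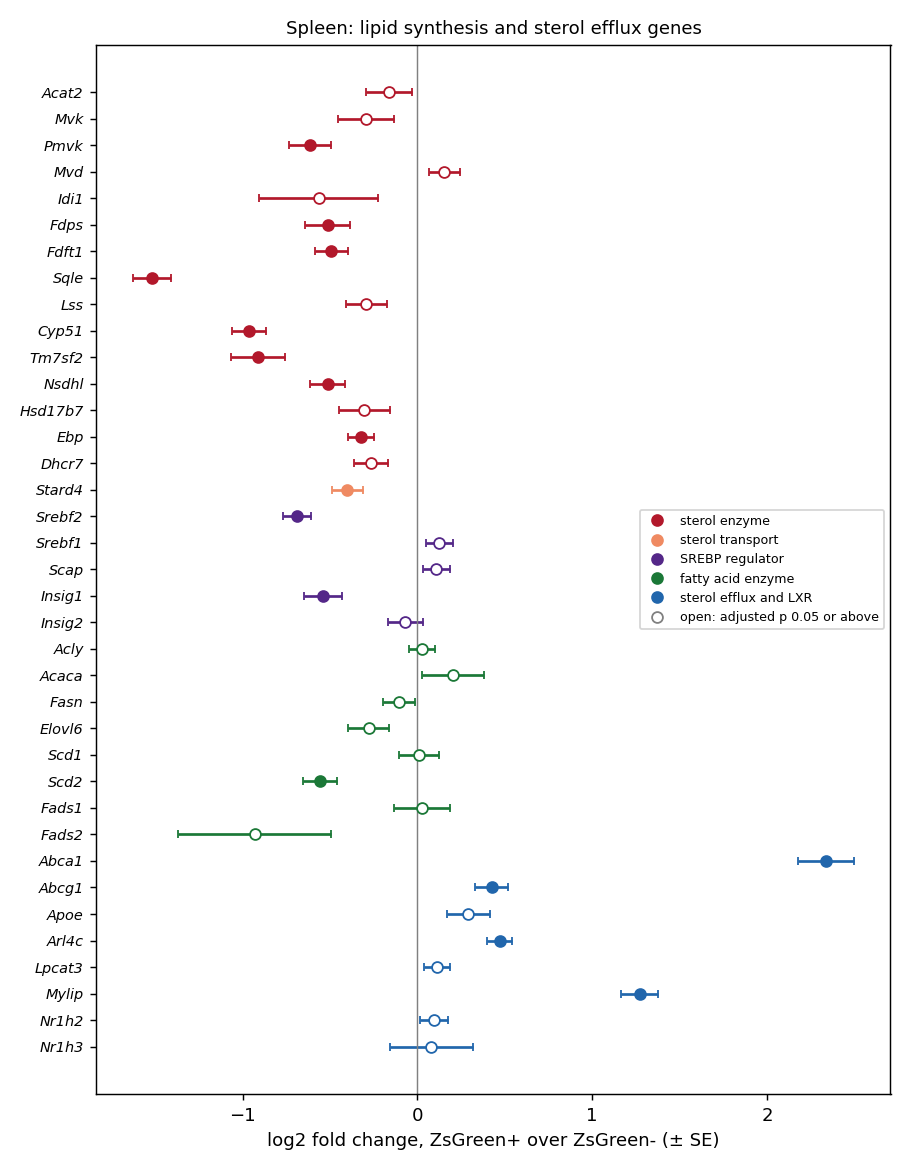
Log2 fold change of RNA, ZsGreen+ over ZsGreen- spleen cells (points, edgeR) with its standard error (bars), for the 29 tested members and the 8 genes of sterol efflux and the liver X receptors (LXR). Filled points passed an adjusted p of 0.05. Sterol enzymes lie left of 0 except Mvd, fatty acid enzymes lie on both sides, and the 8 efflux and LXR genes lie right of 0.

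The late arm of the pathway, from squalene to cholesterol, held the strongest differences. All 9 of its tested members had a negative log2 fold change, with a median of -0.49, and 6 passed. Outside the set, Sc5d of the same arm was higher, as given below with the other genes of sterol synthesis and uptake. Sqle, squalene epoxidase and an early oxygen-requiring step, had 6.30 and 5.35 RPKM in ZsGreen+ libraries, against 16.9 and 15.7 RPKM in ZsGreen- libraries. Both ZsGreen+ libraries lay far below both ZsGreen- libraries. The underlying reads were 603 and 403 in ZsGreen+ cells, against 1387 and 1384 in ZsGreen- cells. Its log2 fold change was -1.52 ± 0.11 (SE; adjusted p = 9.75e-06, edgeR), a level 2.86-fold lower.

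Cyp51, the lanosterol demethylase, had 8.97 and 7.90 RPKM in ZsGreen+ libraries, against 16.9 and 15.1 RPKM in ZsGreen- libraries. The groups did not overlap, and the log2 fold change was -0.96 ± 0.10 (adjusted p = 8.31e-05, edgeR). Tm7sf2, a sterol reductase of the same stretch of the pathway, had 3.63 and 3.75 RPKM in ZsGreen+ libraries, against 6.97 and 6.54 RPKM in ZsGreen- libraries. Again both ZsGreen+ values were below both ZsGreen- values, with a log2 fold change of -0.91 ± 0.15 (adjusted p = 0.00205, edgeR). Nsdhl, which helps to remove the C4 methyl groups, had 8.57 and 8.74 RPKM in ZsGreen+ libraries, against 11.9 and 12.2 RPKM in ZsGreen- libraries. Fdft1, squalene synthase, had 9.01 and 8.48 RPKM in ZsGreen+ libraries, against 12.3 and 11.7 RPKM in ZsGreen- libraries. These were 1.43-fold and 1.41-fold lower (adjusted p = 0.00424 and 0.00418, edgeR).

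Ebp, a sterol isomerase, had the highest level per length of the sterol enzymes and a smaller difference. It had 37.7 and 38.1 RPKM in ZsGreen+ libraries, against 46.7 and 45.6 RPKM in ZsGreen- libraries, a log2 fold change of -0.32 ± 0.07 (adjusted p = 0.0111, edgeR). Its call was lost without ZsGreen+ replicate 1 (adjusted p = 0.0544) or ZsGreen+ replicate 2 (adjusted p = 0.0534). Lss (lanosterol synthase), Hsd17b7 and Dhcr7 had log2 fold changes of -0.29, -0.30 and -0.26 and did not pass, although their groups did not overlap. Without ZsGreen+ replicate 2, Lss passed (adjusted p = 0.0385).

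**Figure D2:**
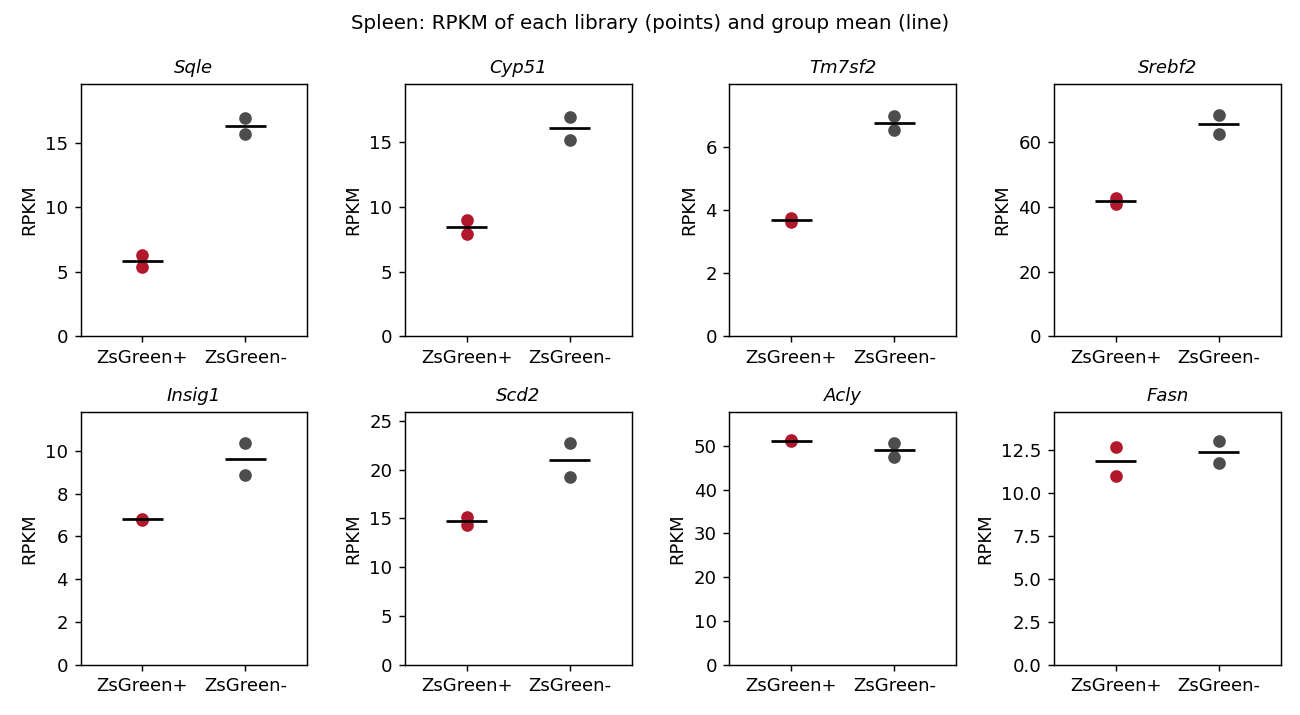
RPKM of 8 members in each spleen library (points) with the group mean (line). Both ZsGreen+ points lie below both ZsGreen- points for Sqle, Cyp51, Tm7sf2, Srebf2, Insig1 and Scd2; for Acly the ZsGreen+ points are slightly higher, and for Fasn the groups overlap.

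In the mevalonate arm, 2 of 6 tested enzymes passed, both lower in ZsGreen+ cells. Pmvk, phosphomevalonate kinase, had 14.2 and 14.8 RPKM in ZsGreen+ libraries, against 24.0 and 19.4 RPKM in ZsGreen- libraries. Its log2 fold change was -0.61 ± 0.12 (adjusted p = 0.0043, edgeR). Fdps, which makes farnesyl diphosphate, had 9.21 and 9.38 RPKM in ZsGreen+ libraries, against 14.3 and 11.6 RPKM in ZsGreen- libraries. Its log2 fold change was -0.51 ± 0.13 (adjusted p = 0.016, edgeR), and without ZsGreen- replicate 1 its adjusted p was 0.0894. Mvd, the mevalonate diphosphate decarboxylase, went the other way without passing, with 19.9 and 20.1 RPKM in ZsGreen+ libraries against 17.1 and 17.9 RPKM in ZsGreen- libraries. Its row is a RefSeq non-coding transcript record of the gene. Acat2, Mvk and Idi1 had log2 fold changes of -0.16, -0.29 and -0.56 and did not pass. Idi1 was low throughout, at 0.394 to 0.619 RPKM in the spleen. Stard4, which carries cholesterol between membranes, had 9.77 and 9.59 RPKM in ZsGreen+ libraries, against 12.8 and 12.2 RPKM in ZsGreen- libraries (log2 fold change -0.40 ± 0.09, adjusted p = 0.00913, edgeR).

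Of the 5 SREBP regulators, 2 were lower and 3 did not pass. Srebf2 was the most abundant sterol-side regulator, with 41.0 and 42.7 RPKM in ZsGreen+ libraries, against 62.7 and 68.4 RPKM in ZsGreen- libraries. The groups were well separated, with a log2 fold change of -0.69 ± 0.08 (adjusted p = 0.000223, edgeR). Insig1, itself a known SREBP target, had 6.76 and 6.84 RPKM in ZsGreen+ libraries, against 10.4 and 8.88 RPKM in ZsGreen- libraries (log2 fold change -0.54 ± 0.11, adjusted p = 0.00564, edgeR). Srebf1 had 35.3 and 37.3 RPKM in ZsGreen+ libraries, against 31.3 and 33.4 RPKM in ZsGreen- libraries, and its log2 fold change of 0.13 ± 0.08 did not pass. Scap had 17.2 and 18.6 RPKM in ZsGreen+ libraries, against 16.3 and 16.0 RPKM in ZsGreen- libraries. Insig2 had overlapping groups and a log2 fold change of -0.07.

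Of the 8 fatty acid enzymes, 1 was lower and 7 did not pass, with a median log2 fold change of -0.05 and 4 members on each side of 0. Scd2, a stearoyl-CoA desaturase, had 14.3 and 15.1 RPKM in ZsGreen+ libraries, against 19.3 and 22.7 RPKM in ZsGreen- libraries. Its log2 fold change was -0.55 ± 0.10 (adjusted p = 0.00255, edgeR). Scd1, its close relative, differed by 0.01 ± 0.11 on the log2 scale, with 3.22 and 3.16 RPKM in ZsGreen+ libraries against 3.12 and 3.05 RPKM in ZsGreen- libraries. Reads that Scd1 and Scd2 share could have been split between them by the authors' counting. Acly, which supplies cytosolic acetyl-CoA to both pathways, had 51.4 and 51.0 RPKM in ZsGreen+ libraries, against 50.7 and 47.3 RPKM in ZsGreen- libraries. Fasn, fatty acid synthase, had 10.98 and 12.7 RPKM in ZsGreen+ libraries, against 11.7 and 13.0 RPKM in ZsGreen- libraries. Their log2 fold changes were 0.03 ± 0.07 and -0.11 ± 0.09. Elovl6, an elongase, had a log2 fold change of -0.28 and did not pass (adjusted p = 0.119, edgeR). Fads1 and Fads2 are desaturases of polyunsaturated fatty acids, with log2 fold changes of 0.03 and -0.93. The Fads2 value rests on 18 and 23 reads in ZsGreen+ libraries, against 39 and 38 reads in ZsGreen- libraries. Acaca, acetyl-CoA carboxylase, was at 0.738 to 1.01 RPKM.

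Groups without overlap were found for 24 of 29 members in the spleen, 18 lower and 6 higher in ZsGreen+ cells. Over all genes tested 62.7% had groups without overlap, 26.9% lower and 35.8% higher. The 16 sterol enzymes summed to 150.0 and 150.4 RPKM in ZsGreen+ libraries, against 206 and 194 RPKM in ZsGreen- libraries. The 8 fatty acid enzymes summed to 88.3 and 91.2 RPKM in ZsGreen+ libraries, against 93.3 and 96.0 RPKM in ZsGreen- libraries. The sterol sum was 1.70 and 1.65 times the fatty acid sum in ZsGreen+ libraries, against 2.21 and 2.02 times in ZsGreen- libraries. Both ZsGreen+ ratios were below both ZsGreen- ratios.

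**Figure D3:**
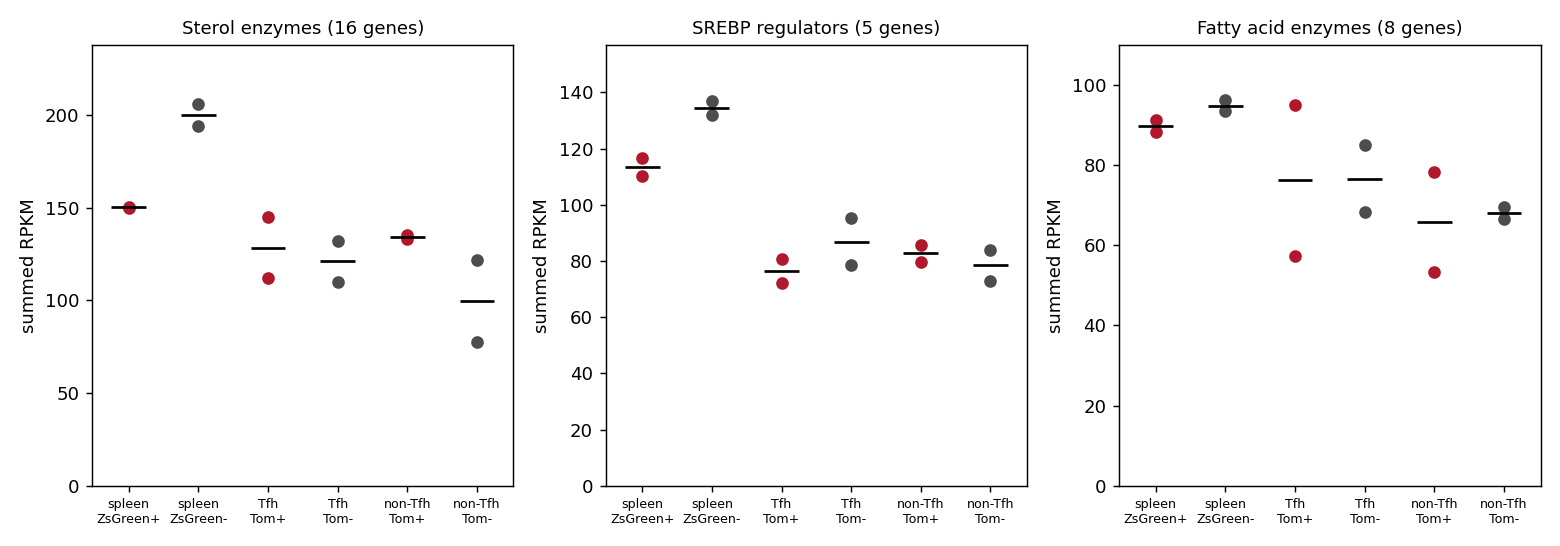
Summed RPKM of the 16 sterol enzymes, the 5 SREBP regulators and the 8 fatty acid enzymes in each library (points) with the group mean (line), in the 6 RNA groups (Tom, Tomato). In the spleen the sterol sum is 150.0 and 150.4 in ZsGreen+ libraries, against 206 and 194 in ZsGreen- libraries, and libraries of the lymph node groups spread widely.

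Pathway genes outside the set were read from lists chosen by role. Of 12 other genes of sterol synthesis and uptake, 6 were lower and 2 higher in ZsGreen+ spleen cells, with a median log2 fold change of -0.42. Among them Lipa, the lysosomal acid lipase that frees cholesterol from its esters, had a log2 fold change of -0.72 ± 0.08. The 2 higher genes were Npc1 (0.47 ± 0.12), which exports cholesterol from lysosomes, and Sc5d (0.29 ± 0.08), the sterol C5-desaturase. Both calls were lost when 1 spleen library was left out.

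The 8 genes of sterol efflux and the LXRs, nuclear receptors for oxysterols, all had positive log2 fold changes, with a median of 0.36, and 4 were higher in ZsGreen+ cells. Abca1, the cholesterol exporter, had 2.62 and 3.63 RPKM in ZsGreen+ libraries, against 0.594 and 0.605 RPKM in ZsGreen- libraries. It was 5.05-fold higher (log2 fold change 2.34 ± 0.16, adjusted p = 7.17e-06, edgeR). Mylip, an LXR target whose product degrades lipoprotein receptors, had 26.0 and 32.7 RPKM in ZsGreen+ libraries, against 11.8 and 11.8 RPKM in ZsGreen- libraries (log2 fold change 1.27 ± 0.11, adjusted p = 2.34e-05, edgeR). The other 2, named after their values were seen, were the LXR targets Arl4c (0.47 ± 0.07) and Abcg1 (0.42 ± 0.10), and the call of Abcg1 was lost when 1 library was left out. In oxysterol metabolism and sensing 3 of 5 genes were tested, and Gpr183, an oxysterol receptor that guides lymphocyte positioning, was lower (-0.99 ± 0.12).

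Other fatty acid synthesis and activation genes were mixed, with 5 lower and 2 higher of 19 tested and a median log2 fold change of -0.01. Acss2, which makes acetyl-CoA from acetate, had 16.8 and 20.6 RPKM in ZsGreen+ libraries, against 9.13 and 10.5 RPKM in ZsGreen- libraries (log2 fold change 0.89 ± 0.12). Acsl1, an acyl-CoA synthetase, was also higher (0.63 ± 0.14). Mid1ip1, an activator of acetyl-CoA carboxylase, and Elovl5, an elongase, were lower (-0.96 ± 0.14 and -0.45 ± 0.07). In fatty acid oxidation 2 of 10 tested genes, Acadvl (0.34) and Acaa2 (0.29), were higher and 0 lower, although 6 of the 10 had negative values and the median log2 fold change was -0.14. In SREBP processing and its control Rptor (0.64 ± 0.10), of the mTORC1 complex, and Erlin2 (0.31) were higher and the protease gene Mbtps1 (-0.31) was lower, of 10 tested. The calls of Acadvl, Acaa2, Erlin2 and Mbtps1 were each lost when 1 library was left out, and DESeq2 with all libraries did not call Acaa2 (adjusted p = 0.0559) or Erlin2 (adjusted p = 0.101).

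Markers of other states and cells also moved between the spleen groups. Of 18 cell cycle genes 10 were lower and 2 higher in ZsGreen+ cells, with a median log2 fold change of -0.42 and sums of 484 and 464 RPKM in ZsGreen+ libraries, against 538 and 505 RPKM in ZsGreen- libraries. Of 14 myeloid markers 4 were higher and 1 lower, with sums of 1805 and 1682 RPKM in ZsGreen+ libraries, against 1306 and 1560 RPKM in ZsGreen- libraries. Lyz2, a macrophage and neutrophil marker, had 312 and 269 RPKM in ZsGreen+ libraries, against 187 and 232 RPKM in ZsGreen- libraries. Abca1 is also expressed by macrophages. All 14 myeloid markers had reads in all 4 spleen libraries. The 10 CD4 T cell markers summed to 3007 and 3158 RPKM in ZsGreen+ libraries, against 3872 and 3712 RPKM in ZsGreen- libraries, and 5 were lower. The 8 B cell markers summed to 152 and 132 RPKM in ZsGreen+ libraries, against 153 and 153 RPKM in ZsGreen- libraries. The part of these cells and states in the sterol and efflux values was not tested.

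In the lymph node, edgeR called 0 of the 28 tested members in each of 7 contrasts. Hmgcs1 and Fads2 had no reads there and were not tested. Among all 11746 genes tested 0.111% were called between Tomato+ and Tomato- Tfh cells and 0.332% between Tomato+ and Tomato- non-Tfh cells. Between Tfh and non-Tfh cells 0.0766% were called among Tomato+ cells, 0.179% among Tomato- cells and 1.07% with both Tomato states averaged. For Tomato+ over Tomato- with both populations averaged the share was 0.656%, and for the interaction of population with Tomato it was 0%. In the same order of contrasts 2, 3, 1, 3, 1, 0 and 2 of the 28 members had an unadjusted p below 0.05. Of all 11746 genes tested 685, 1050, 962, 1060, 1410, 1289 and 746 did so. DESeq2 called 1 member in 4 of the 7, the 2 Tfh over non-Tfh contrasts within a Tomato state, their average and the interaction. Limma called 0. The median standard error of the members' log2 fold changes was 0.70 to 1.39 in the lymph node and 0.11 in the spleen, so differences of the size most members showed in the spleen were not detectable there.

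Groups of 2 libraries without overlap were frequent among all genes as well as among members. They were found for 11 of 28 members between Tomato+ and Tomato- Tfh cells and 13 between Tomato+ and Tomato- non-Tfh cells, where all genes gave 34.9% and 37.8%. Between Tfh and non-Tfh cells 12 members did not overlap among Tomato+ cells and 13 among Tomato- cells, where all genes gave 39.2% and 37.1%. With 4 libraries against 4, Scd1 alone did not overlap between Tfh and non-Tfh cells (all genes 6.56%), and Fdps alone between Tomato+ and Tomato- cells (all genes 5.34%).

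Srebf2 had the smallest p among the members. It had 4.41 and 10.5 RPKM in Tfh Tomato+ libraries and 13.9 and 19.5 RPKM in Tfh Tomato- libraries, against 26.0 and 27.7 RPKM in non-Tfh Tomato+ libraries and 18.8 and 18.2 RPKM in non-Tfh Tomato- libraries. Tfh Tomato+ cells were lowest and non-Tfh Tomato+ cells highest, and these groups did not overlap each other or the rest. The log2 fold change of Tfh over non-Tfh among Tomato+ cells was -1.95 ± 0.43 (adjusted p = 0.198, edgeR; 0.00246, DESeq2). With both Tomato states averaged it was -1.07 ± 0.30 (adjusted p = 0.207, edgeR; 0.0234, DESeq2).

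Scap had 16.0 and 14.3 RPKM in Tfh Tomato+ libraries, against 8.23 and 7.42 RPKM in Tfh Tomato- libraries. In non-Tfh cells the order was the opposite, with 8.75 and 9.08 RPKM in Tomato+ libraries, against 16.6 and 15.8 RPKM in Tomato- libraries. Tfh over non-Tfh among Tomato- cells gave a log2 fold change of -1.10 ± 0.36 (adjusted p = 0.435, edgeR; 0.0426, DESeq2). The interaction was 1.77 ± 0.51 (adjusted p = 0.774, edgeR; 0.0342, DESeq2). Insig1 had 25.1 and 24.6 RPKM in Tfh Tomato+ libraries and 14.0 and 25.2 RPKM in Tfh Tomato- libraries, against 11.96 and 14.0 RPKM in non-Tfh Tomato+ libraries and 12.03 and 18.6 RPKM in non-Tfh Tomato- libraries. Its Tfh and non-Tfh values overlapped.

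**Figure D4:**
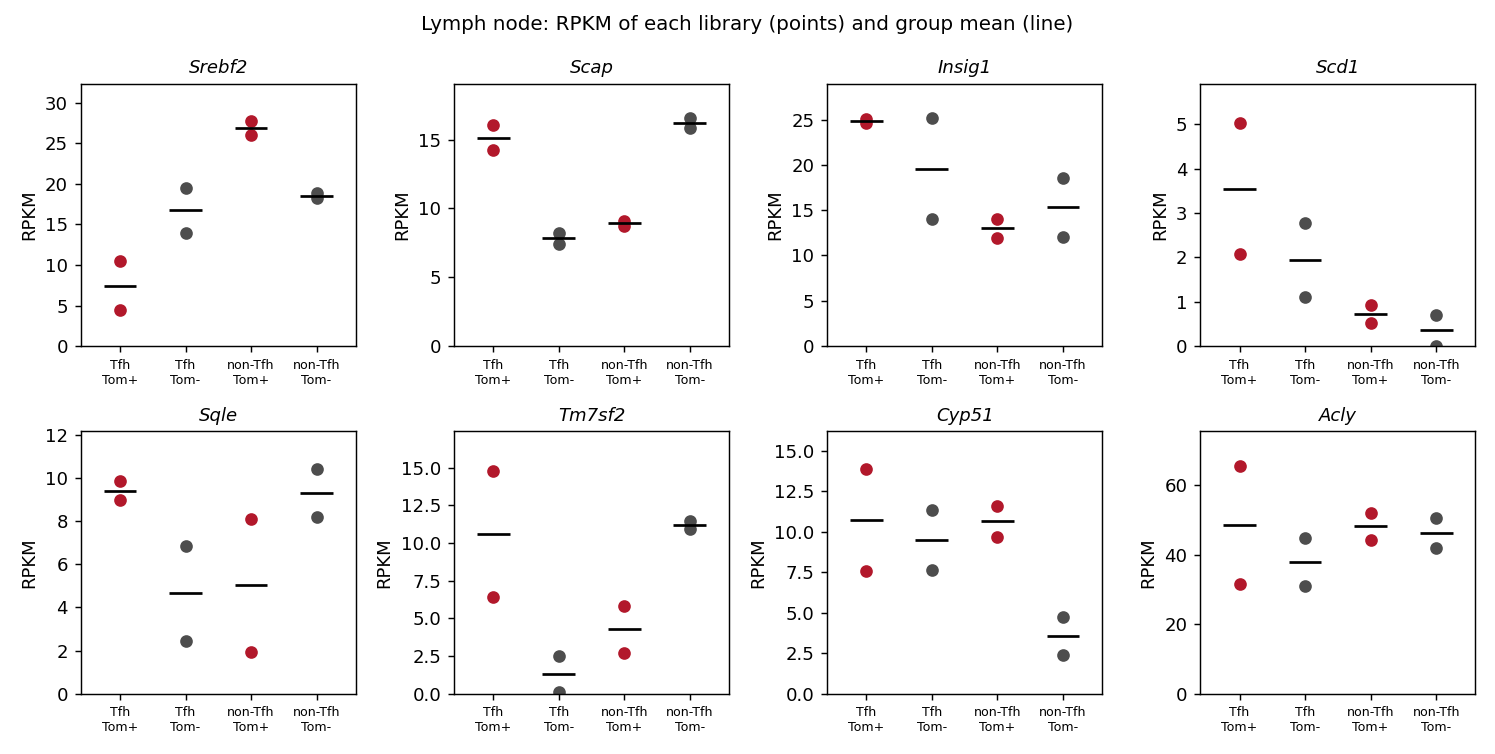
RPKM of 8 members in each lymph node library (points) with the group mean (line), for Tfh and non-Tfh cells that were Tomato+ or Tomato- (Tom+, Tom-). Srebf2 is lowest in Tfh Tomato+ libraries (4.41 and 10.5), Scap is high in Tfh Tomato+ and non-Tfh Tomato- libraries, and most other members spread widely within a group.

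Sterol enzymes varied between replicate libraries. Sqle had 9.83 and 8.96 RPKM in Tfh Tomato+ libraries, against 6.84 and 2.45 RPKM in Tfh Tomato- libraries, and in non-Tfh cells 8.12 and 1.94 RPKM in Tomato+ libraries, against 10.4 and 8.20 RPKM in Tomato- libraries. Cyp51 had 7.58 and 13.9 RPKM in Tfh Tomato+ libraries, against 11.3 and 7.63 RPKM in Tfh Tomato- libraries, and in non-Tfh cells 11.6 and 9.70 RPKM in Tomato+ libraries, against 4.77 and 2.42 RPKM in Tomato- libraries. The non-Tfh Tomato- libraries were the lowest for Cyp51. In 5 of 28 members, Sqle, Scap, Srebf2, Tm7sf2 and Idi1, the Tomato groups did not overlap in either population and differed in opposite directions, as in 4.72% of all genes tested. Mvk, mevalonate kinase, had 0.933 and 0.0516 RPKM in Tfh Tomato+ libraries and 20.5 and 9.32 RPKM in Tfh Tomato- libraries, but its non-Tfh libraries also ran from 0.0318 to 6.50 RPKM. Hsd17b7 had 163 to 186 reads in 3 lymph node libraries and 0 to 2 reads in the other 5. Fold changes of Mvk and Hsd17b7 depend on single libraries and are not given one by one. They do enter the medians of the sterol enzymes. So do Fdft1, Pmvk, Mvd, Tm7sf2, Lss and Nsdhl, whose lowest lymph node library held 3 to 9 reads, and Idi1, at 1 read.

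The median log2 fold change of the 15 tested sterol enzymes was 0.82 for Tomato+ over Tomato- with both populations averaged, beside 0.00366 over all genes tested. Of the 15, 12 were positive, beside 5912 of all 11746 genes tested. The median standard error of these enzymes, 0.98, was larger than their median. That median was 0.38 in Tfh cells and 0.57 in non-Tfh cells, and no sterol enzyme passed in any of the 3 contrasts. With both populations averaged the median was 0.21 for the 7 tested fatty acid enzymes. For Tfh over non-Tfh with both Tomato states averaged the medians were -0.11 for sterol enzymes and -0.06 for fatty acid enzymes. Sterol enzymes summed to 145 and 112 RPKM in Tfh Tomato+ libraries, against 132 and 110 RPKM in Tfh Tomato- libraries. In non-Tfh cells they summed to 133 and 135 RPKM in Tomato+ libraries, against 122 and 77.8 RPKM in Tomato- libraries. The Tfh sums overlapped between Tomato states and the non-Tfh sums did not. The lowest sum, in non-Tfh Tomato- replicate 2, came from the library with the fewest gene reads (13169783). There Fdft1 had 3 reads, Pmvk 5 and Lss 8, against 314, 279 and 139 reads in replicate 1. Mvd and Idi1 went the other way, with 359 and 61 reads against 136 and 41. The non-Tfh median given above includes this library.

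For Tomato+ over Tomato- with both populations averaged, edgeR called 4 of 14 myeloid markers as lower and 1 of 18 cell cycle genes as higher, and the median log2 fold changes of these lists were -2.81 and 1.04. The medians were 0.09 for CD4 T cell markers and -0.16 for B cell markers. The 14 myeloid markers, all with a negative log2 fold change in both populations, summed to 419 to 824 RPKM in Tomato+ libraries, against 1405 to 2410 RPKM in Tomato- libraries. The macrophage gene Emr1 had 0 to 3 reads in the 4 Tomato+ libraries, against 2 to 338 reads in the 4 Tomato- libraries. The neutrophil gene S100a8 had 300 and 263 RPKM in the Tomato- replicate 2 libraries of Tfh and non-Tfh cells. The 18 cell cycle genes summed to 311 to 457 RPKM in Tomato+ libraries, against 189 to 288 RPKM in Tomato- libraries. Their part in the sterol enzyme values was not tested. Without both Tomato- replicate 2 libraries edgeR again called 0 members in all 7 contrasts.

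Among fatty acid enzymes Acly stayed the highest in every lymph node library, at 31.1 to 65.7 RPKM. Scd1 had 2.07 and 5.04 RPKM in Tfh Tomato+ libraries and 1.11 and 2.77 RPKM in Tfh Tomato- libraries, against 0.933 and 0.509 RPKM in non-Tfh Tomato+ libraries and 0.706 and 0.0109 RPKM in non-Tfh Tomato- libraries. Its log2 fold change for Tfh over non-Tfh with both states averaged was 2.30 ± 1.22 and did not pass (adjusted p = 0.511, edgeR). The size of this value leans on non-Tfh Tomato- replicate 2, which held 1 read of Scd1, against 83 reads in replicate 1. Fdps had 8.15 and 7.21 RPKM in Tfh Tomato+ libraries, against 8.91 and 12.5 RPKM in Tfh Tomato- libraries, and in non-Tfh cells 4.62 and 3.50 RPKM in Tomato+ libraries, against 11.8 and 10.3 RPKM in Tomato- libraries. Its log2 fold change for Tomato+ over Tomato- with both populations averaged was -0.95 ± 0.65. Of the pathway lists outside the set, edgeR called Gpr183 (-0.85 ± 0.11) and Arl4c (-2.09 ± 0.31) as lower in Tfh than in non-Tfh cells with both states averaged. Apoe, which is also a macrophage gene and one of the myeloid markers, was lower in Tomato+ than in Tomato- cells among non-Tfh cells (-2.99 ± 0.37) and with both populations averaged (-1.49 ± 0.25).

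Levels in spleen and lymph node came from different mice, tissues and sorts, which cannot be told apart, and were set side by side without a test. Srebf2 was at 41.0 to 68.4 RPKM in spleen libraries and 4.41 to 27.7 RPKM in lymph node libraries. Insig1 was at 6.76 to 10.4 RPKM in spleen libraries and 11.96 to 25.2 RPKM in lymph node libraries. Neither gene's ranges overlapped between the tissues, while those of the regulators Srebf1, Scap and Insig2 did. Other members, such as Mvd and Fasn, also had ranges without overlap. The share of all genes without such overlap was not counted, and the lymph node libraries had reads for fewer genes.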

How the data were processed

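Members and lists were chosen with earlier results of these data known. The authors deposited whole-number read counts per RefSeq transcript, used here as deposited, with RPKM beside them, made from polyadenylated RNA per the labels' protocols. The column headings of length and count stand exchanged in the 4 spleen tables, which was settled from the values. CASAVA 2.18, Bowtie2, SICER 1.1, edgeR and the build mm9 are named in the submitters' processing notes, without their roles. Strandedness of the counting is not given in these sources. Of 29257 transcript rows the row with most reads was kept per symbol (22878 symbols, 4019 with several rows, 6 of them members).

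Counts were tested with edgeR 4.0.16 in R 4.3.3 (TMM, filterByExpr, quasi-likelihood F test, Benjamini-Hochberg adjusted p below 0.05 over all genes tested), tested on simulated data first. The 4 spleen libraries were fitted alone and the 8 lymph node libraries together. Groups came from the sample labels. The standard error is the fold change divided by the square root of F. Precision is limited by 2 libraries a group. Alternatives were DESeq2 1.42.0, limma-trend (limma 3.58.1) on log2(RPKM + 1) or log2(RPKM + 0.1), median-of-ratios factors, no filter, a mean of 5 RPKM or more, a replicate block, leaving out libraries, and fitting compared libraries alone. All members could be named. Other lists gave up to 2 called spleen genes in each direction, by adjusted p, and some genes so picked are not reported here. Of the marker lists, Lyz2, S100a8 and sort genes were named for their levels, and Emr1 was named outside this plan. The 8 DNase libraries were not used: no gene positions of that build were at hand, so the planned count of open regions at members' start sites was not run.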

Additional observations from a re-analysis of the deposited data

Results flagged for a closer look

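For 5 members the Tomato+ and Tomato- libraries did not overlap in Tfh cells nor in non-Tfh cells, and the 2 differences had opposite signs. Such a pattern was present in 4.72% of all genes tested in the lymph node. The interaction was tested with edgeR, and 0 of the 5 passed after adjustment over all genes. DESeq2 called Scap alone of the 5 (1.80, adjusted p = 0.0342), so for Scap the call depends on the tool. Scap had an interaction of 1.77 ± 0.51 on the log2 scale (adjusted p = 0.774), higher in Tomato+ than in Tomato- Tfh cells and lower in Tomato+ than in Tomato- non-Tfh cells. Srebf2 had the reverse order, with an interaction of -1.75 ± 0.60 (adjusted p = 0.774). Sqle had 1.88 ± 1.29 (adjusted p = 0.936). Tm7sf2 had 4.37 ± 2.04 (adjusted p = 0.783), from 14.8 and 6.42 RPKM in Tfh Tomato+ libraries, against 0.139 and 2.50 RPKM in Tfh Tomato- libraries. Its Tfh Tomato- values rest on 6 and 95 reads, so the size of its interaction leans on a library with few reads. Idi1 had 6.25 ± 2.98 (adjusted p = 0.798), but its Tfh values rest on 115 and 9 reads in Tomato+ libraries, against 2 and 1 reads in Tomato- libraries. With 2 libraries a group, single outlying libraries within a group were not screened for.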

How the results depend on the processing

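In the spleen 12 members were called under every alternative other than leaving out 1 library, which gave 11 to 12. The count over all genes was 3074 and became 1981 with a mean of 5 RPKM or more; leaving out 1 library gave 2523 to 3264. In the lymph node edgeR and limma called 0 members under every alternative run. DESeq2 called 1 for Tfh over non-Tfh among Tomato+ cells, 1 among Tomato- cells, 1 with both averaged and 1 for the interaction. Counts over all lymph node genes depended on tool and libraries, and the cause was not tested. Tfh Tomato+ over Tomato- gave 13 genes, but 291 with DESeq2, 29 and 21 with limma (pseudocounts 1 and 0.1), 25 with no filter, and 0 without both Tomato- replicate 2 libraries or with the compared libraries alone. Non-Tfh Tomato+ over Tomato- gave 39, but 648 with DESeq2, 71 and 59 with limma, 65 with no filter, 6 without both Tomato- replicate 2 libraries and 3 alone. Tfh over non-Tfh among Tomato+ cells gave 9, but 465 with DESeq2, 29 and 23 with limma, 49 with no filter, 40 with a mean of 5 RPKM, and 0 in the last 2 settings. Among Tomato- cells it gave 21, but 606 with DESeq2, 43 with limma (pseudocount 1), 52 with no filter, 51 with a mean of 5 RPKM, and 0 in the last 2. With both averaged it gave 126, but 815 with DESeq2 and 27 without both Tomato- replicate 2 libraries. Tomato+ over Tomato- with both populations averaged gave 77, but 697 with DESeq2 and 46 without both. The interaction gave 0, but 210 with DESeq2; 746 genes had an unadjusted p below 0.05. Leaving out 1 library gave, in this order of contrasts, 2 to 8, 5 to 37, 0 to 1, 6 to 12, 46 to 84, 38 to 94 and 0 to 0 genes. With no change of call, 5 log2 fold changes changed sign when 1 library was left out. They ranged from -0.33 to 0.023 for Acat2 (positive without ZsGreen- replicate 1), -0.20 to 0.30 for Fads1 (negative without ZsGreen- replicate 1), -0.0092 to 0.059 for Acly (negative without ZsGreen- replicate 2) and -0.019 to 0.038 for Scd1 (negative without ZsGreen+ replicate 1). For Srebf2 in Tfh over non-Tfh among Tomato- cells they ranged from -0.45 to 0.034 (positive without Tfh Tomato- replicate 1). Of the other single-gene values 799 kept direction and call, 22 lost the call and 5 gained it.

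Same-numbered libraries did not deviate together from their group means (correlations from -0.0283 to 0.0175). This cannot show whether they came from the same animals or sort, which these sources do not give. With the replicate block 12 members were called in the spleen and 0 in each lymph node contrast. All-gene counts with the block were 3359 in the spleen and, in the order above, 12, 23, 1, 22, 75, 62 and 0. Low read counts in some libraries limit Idi1, Acaca, Hsd17b7 and Fads2. In the lymph node they also limit Mvk, Fdft1, Pmvk, Mvd, Tm7sf2, Lss, Nsdhl, Scd1, Fads1 and Elovl6. The lowest lymph node library of each of these held 1 to 9 reads. The cause of the low counts was not tested. The planned look at DNase islands near members was not run.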
